A study of Mus musculus with 18 samples.

Results

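Transcripts of 10 genes that build the cytoskeleton and the cell contacts of Sertoli cells were followed across 6 groups of mouse testes. The genes were taken by symbol from a deposited table of 20985 genes, and all 10 were present: Vim and Krt18 (intermediate filaments), Zyx, Vcl, Actn1, Flna, Ezr and Espn (actin filaments and their anchorage), Cdh2 (cadherin adhesion) and Gja1 (gap junctions). Whole testes of ICR mice, an outbred stock, were profiled by RNA sequencing at 10 weeks of age, with 3 libraries per group. The control group is labelled by that name alone. Mice of the AOS group were given 10 mg/kg alginate oligosaccharide, a short sugar chain derived from seaweed alginate. Those of the STZ group were given streptozotocin, a toxin of pancreatic beta cells used to model diabetes, and those of the STZ+AOS group both agents, with AOS again at 10 mg/kg. In the remaining groups streptozotocin was combined with faecal microbiota transfer (FMT), which the labels were read to mean material from mice given AOS at 10 mg/kg (STZ+AOS-FMT) or from control mice (STZ+control-FMT). The question set by these groups is what streptozotocin does to the testis and how AOS or the transplants alter it. The labels do not say that the libraries of a group are separate animals, and p-values then measure only the spread between these libraries, which may be technical.

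Sertoli cells are the somatic cells that line the seminiferous tubule and hold the germ cells at every stage of their development. Their vimentin filaments run from the nucleus to the cell surface, and their actin is bundled beneath the membrane at the ectoplasmic specialization, a junction type peculiar to the testis that holds spermatids and forms part of the blood-testis barrier. N-cadherin and connexin 43 join Sertoli cells to each other and to germ cells. None of the 10 genes is restricted to Sertoli cells: fibroblasts, peritubular muscle-like cells, endothelium, macrophages and Leydig cells also use many of them. In whole tissue, fewer cells of a type and less RNA per cell cannot be told apart.

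Levels are given in FPKM, fragments scaled by transcript length and library size, a unit read from the values because the table names none. Over all genes, the libraries summed to between 561038 and 622169. The number of reads behind each value is unknown, so no counting interval was computed. Replicates of a group correlated at between 0.9874 and 0.9964 (Pearson's r of log2 values across genes, which are not independent replicates). The lowest of these values involved STZ replicate 1, which stood apart from the other STZ libraries. Markers of Sertoli cells were present in every library, with 16 markers summing to between 914.7 and 1130 FPKM outside the STZ group and to 2091, 2716 and 2717 in it. Control replicate 3 and STZ+control-FMT replicates 2 and 3 carried epididymal transcripts, with 6 markers summing to 164.7, 262.9 and 282.4 FPKM against at most 13.8 in the other 15 libraries. The markers did not rise together. In control replicate 3 and STZ+control-FMT replicate 2 the sum was almost all Crisp1, at 158.8 and 255.7 FPKM. Defb20 (0.25 and 0.36) and Cst11 (0.29 and 0.44) were low there. In STZ+control-FMT replicate 3, Defb20 was at 99.07, Cst11 at 77.81 and Crisp1 at 33.64 FPKM. The main values of Krt18 and Krt8 that rest on these 3 libraries are given with and without them. So are those of Ezr between STZ and control, and of Ezr and Flna between the transplants. Other values of Ezr and Flna are given with all libraries.

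The 5 highest-level members in control testes were Vim at 31.2 ± 0.70, Espn at 26.0 ± 2.33, Zyx at 15.6 ± 0.62, Cdh2 at 14.4 ± 2.25 and Vcl at 12.1 ± 0.21 FPKM (SD, n = 3). Gja1 followed at 10.96 ± 0.61, Flna at 6.26 ± 0.29, Ezr at 6.02 ± 1.02, Actn1 at 4.39 ± 0.21 and Krt18 at 1.21 ± 1.25 FPKM. These levels are per transcript length, so vimentin mRNA was the most abundant of the set and keratin 18 mRNA the least. Together the 10 genes made up 0.0210 to 0.0219% of the summed FPKM of control libraries. They made up 0.0447, 0.0627 and 0.0592% in STZ replicates 1 to 3, and 0.0190 to 0.0248% in the other 4 groups.

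**Figure D1:**
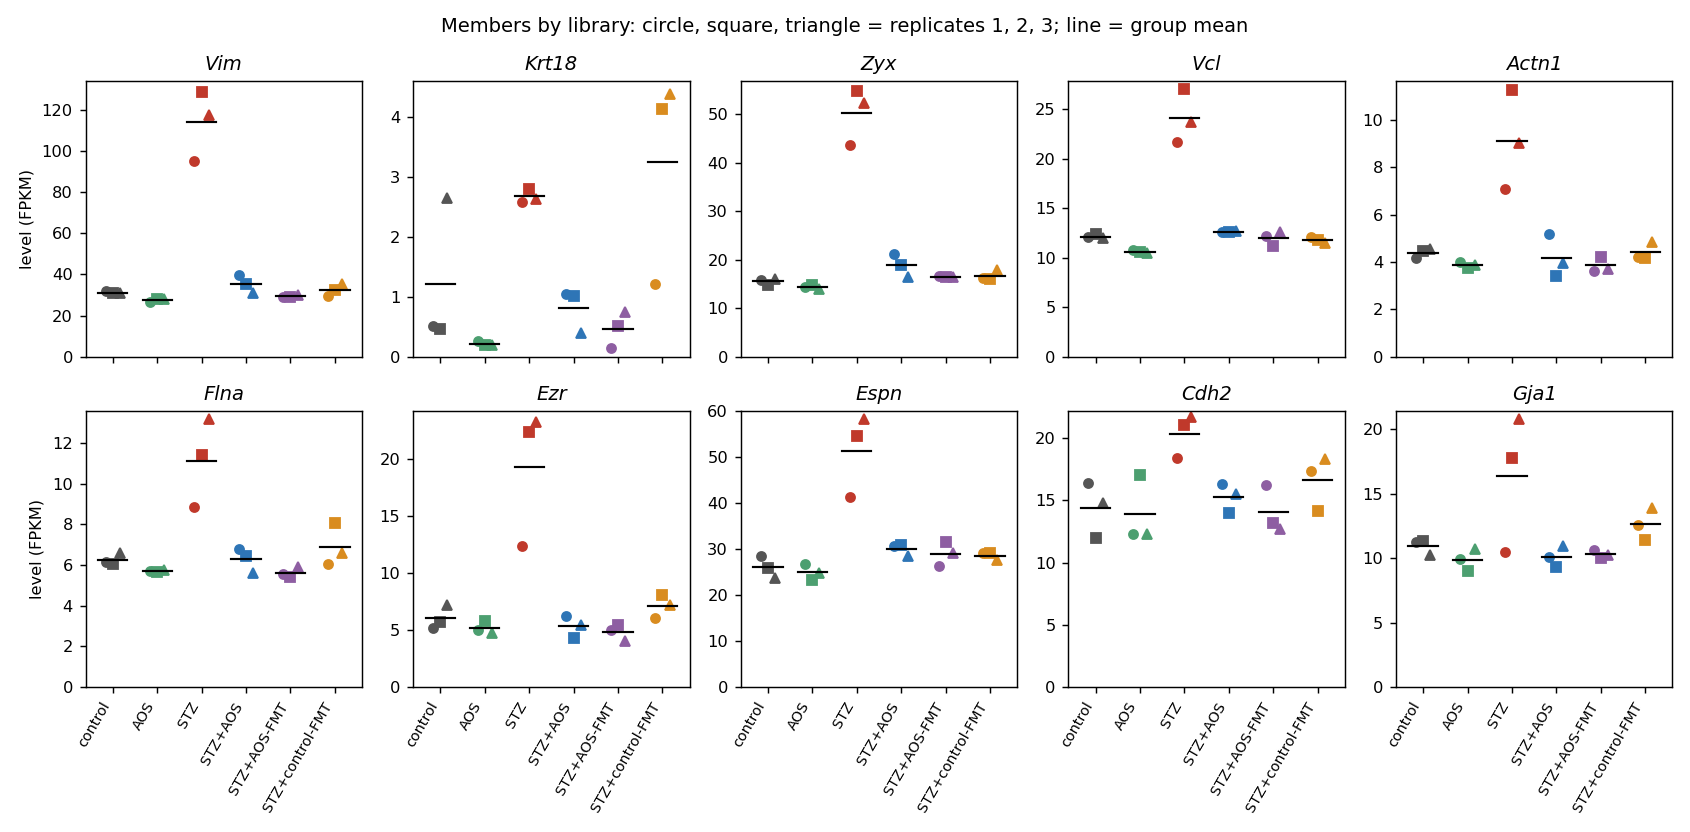
Level of each of the 10 genes in FPKM (linear axes from 0) in 18 libraries, by group; the circle, square and triangle are replicates 1, 2 and 3, and the line is the group mean. In 8 panels all 3 STZ points lie above all control points; Krt18 and Gja1 are the exceptions.

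All 10 genes were higher in STZ than in control testes, by 1.41-fold (Cdh2) to 3.65-fold (Vim) in mean FPKM. Calls are from limma on log2(FPKM + 1), with Benjamini-Hochberg adjustment over the 14164 genes tested and a threshold of 0.05. Of all genes tested, 43.2% were called higher, so a rise in STZ was common, and the size of the members' changes says more than their number. Their median difference was 0.91 on the log2(FPKM + 1) scale, against 0.17 over all genes. Groups did not overlap for 8 members, against 42.1% of all genes whose STZ libraries all exceeded every control library. The log2 scale with a pseudocount of 1 understates changes of low genes.

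Vim encodes vimentin, a filament protein of Sertoli cells and of mesenchymal cells. Its level was 32.0, 30.8 and 30.8 FPKM in control replicates 1 to 3 and 95.2, 129 and 118 in STZ. The STZ libraries lay far above every control library, and the log2 difference was 1.83 ± 0.10 (SE; adjusted p = 5.5e-09, limma). Krt18, a keratin of simple epithelia that immature Sertoli cells also make, was low throughout. It stood at 0.51, 0.46 and 2.65 FPKM in control and 2.59, 2.80 and 2.64 in STZ. The STZ values were tightly grouped, but control replicate 3, which carried epididymal transcripts, lay among them. The log2 difference was 0.88 ± 0.34 (SE; adjusted p = 0.038, limma). With the 3 libraries that carry epididymal markers left out, it was 1.31 (adjusted p = 0.00014, limma). That choice was made after seeing the data and removes the control library that lay among the STZ values, so a larger difference was built in. Without control replicate 3 alone it was also 1.31 (adjusted p = 0.0023, limma). Leaving out control replicate 1 or 2, or any STZ library, ended the call, with log2 differences of 0.65 to 0.89. So did testing without a filter on low values (adjusted p = 0.054, limma) and fitting the STZ and control libraries alone (adjusted p = 0.08).

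Zyx encodes zyxin, a LIM protein that gathers at focal adhesions and stress fibres under tension. It stood at 15.9, 14.9 and 15.98 FPKM in control and 43.7, 54.8 and 52.4 in STZ. The groups were widely separated, with a log2 difference of 1.62 ± 0.09 (SE; adjusted p = 4.8e-09, limma). Vcl encodes vinculin, which links integrin and cadherin complexes to actin and is a component of the ectoplasmic specialization. Its values were 12.1, 12.4 and 11.95 FPKM in control and 21.7, 27.0 and 23.7 in STZ. The log2 difference was 0.93 ± 0.07 (SE; adjusted p = 4.2e-08, limma), the smallest standard error among the 10 genes.

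Among the actin cross-linkers, Actn1, encoding the non-muscle alpha-actinin 1, stood at 4.16, 4.47 and 4.55 FPKM in control and 7.10, 11.3 and 9.03 in STZ. Flna, encoding filamin A, which ties actin into networks, stood at 6.16, 6.04 and 6.59 FPKM in control and 8.84, 11.4 and 13.2 in STZ. Neither gene's groups overlapped, although in both the lowest STZ value came from replicate 1. The log2 differences were 0.89 ± 0.13 for Actn1 and 0.73 ± 0.11 for Flna (SE; adjusted p = 4.7e-05 and 7.9e-05, limma). Ezr encodes ezrin, which joins actin to the plasma membrane. It was at 5.18, 5.73 and 7.16 FPKM in control and 12.3, 22.3 and 23.2 in STZ. STZ replicate 1 lay between control and the other STZ libraries, and the log2 difference was 1.49 ± 0.19 (SE; adjusted p = 1.3e-05, limma). Without the 3 libraries that carry epididymal markers it was 1.60. Espn encodes espin, the actin-bundling protein of the ectoplasmic specialization. Its values were 28.5, 25.9 and 23.8 FPKM in control and 41.3, 54.7 and 58.3 in STZ, a log2 difference of 0.94 ± 0.10 (SE; adjusted p = 3.5e-06, limma) with no overlap.

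The junction genes changed least. Cdh2, encoding N-cadherin, stood at 16.4, 11.99 and 14.8 FPKM in control and 18.4, 21.1 and 21.7 in STZ. The groups did not overlap, but their edges were close, and the log2 difference was 0.48 ± 0.14 (SE; adjusted p = 0.0082, limma). Gja1, encoding connexin 43, stood at 11.3, 11.4 and 10.3 FPKM in control and 10.5, 17.8 and 20.8 in STZ. STZ replicate 1 lay within the control range while the other STZ libraries lay above it. The log2 difference was 0.49 ± 0.16 (SE; adjusted p = 0.017, limma), and it was 0.76 without STZ replicate 1. It lost its call without STZ replicate 2 (0.41; adjusted p = 0.072, limma), STZ replicate 3 (0.30; adjusted p = 0.11) or control replicate 3 (0.45; adjusted p = 0.055), and when the STZ and control libraries were fitted alone (adjusted p = 0.12). STZ replicate 1 also had the lowest sums of Leydig markers (1799 FPKM, against 12010 and 12810 in the other STZ libraries and 3523 to 4045 in control) and of macrophage markers within the group (124.9 FPKM, against 228.5 and 210.3). The part of these cells in the values of Gja1 and Ezr was not tested.

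The promoters of the members, not selected by pattern, were read for short motifs in the 250 bases before the start site, from RefSeq on GRCm38.p6. Windows were found for 9 of the 10 members. The motifs were the GC box GGGCGG, the CCAAT box CCAAT, the TATA box TATAAA, the AP-1 site TGANTCA, the E-box CANNTG and the CArG box by name, each on both strands. Of 32851 windows of this length, 32.7% held a GC box, 33.8% a CCAAT box, 12.4% a TATA box, 6.75% an AP-1 site, 66.2% an E-box and 1.47% a CArG box. GC boxes were found in 6 members, CCAAT boxes and E-boxes in 4 each, AP-1 sites in 3 (Zyx, Ezr and Gja1), and a TATA box (Vim) and a CArG box (Vcl) in 1 each. The windows of Vcl, Ezr and Gja1 are shown as examples, with the one CArG box and 2 of the 3 AP-1 sites, in genes that rose by 0.93, 1.49 and 0.49. They run 5′ to 3′ on the strand of the gene, and capitals mark the matches. The Vcl window, chr14:20929148-20929397 on the plus strand, has a CArG box beginning 227 bases before the start, 4 GC boxes of which 2 overlap, and 3 CCAAT boxes. The Ezr window, chr17:6782781-6783030 on the minus strand, has an AP-1 site beginning 32 bases before the start between 2 GC boxes. The Gja1 window, chr10:56377050-56377299 on the plus strand, has an AP-1 site beginning 19 bases before the start that overlaps an E-box. A match describes the letters only.
Vcl: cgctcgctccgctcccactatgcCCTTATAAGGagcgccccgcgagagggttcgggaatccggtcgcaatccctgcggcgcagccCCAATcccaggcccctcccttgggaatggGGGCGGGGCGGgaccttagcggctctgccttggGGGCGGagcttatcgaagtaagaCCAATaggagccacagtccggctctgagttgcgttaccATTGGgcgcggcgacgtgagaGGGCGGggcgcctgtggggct
Ezr: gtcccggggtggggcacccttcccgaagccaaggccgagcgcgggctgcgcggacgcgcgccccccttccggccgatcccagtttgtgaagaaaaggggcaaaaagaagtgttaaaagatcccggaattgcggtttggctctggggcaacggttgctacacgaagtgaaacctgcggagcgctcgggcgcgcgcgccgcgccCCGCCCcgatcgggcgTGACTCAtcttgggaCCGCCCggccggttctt
Gja1: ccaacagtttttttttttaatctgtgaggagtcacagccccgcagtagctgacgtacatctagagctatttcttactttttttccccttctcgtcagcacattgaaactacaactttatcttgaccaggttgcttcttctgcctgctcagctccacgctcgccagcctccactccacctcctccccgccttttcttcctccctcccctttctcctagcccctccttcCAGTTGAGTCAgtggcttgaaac

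These differences depend on how the libraries are scaled to each other. The values as deposited gave a median log2 difference of 0.17 over all genes, with 78.2% of calls higher in STZ. Centring every library on its median gave -0.17 and 30.4%, and quantile normalization gave -0.06 and 43.5%. Under both, 7 of the 10 members kept their call of higher in STZ and none changed sign. Of all 14164 genes tested, 2678 were called higher after median centring and 3156 after quantile normalization. The calls of Krt18, Cdh2 and Gja1 were lost. After median centring their log2 differences were 0.53 for Krt18, 0.14 for Cdh2 and 0.15 for Gja1, and after quantile normalization 0.50, 0.27 and 0.25. The rises of Vim, Zyx, Ezr, Espn, Vcl, Actn1 and Flna were therefore called under every scaling used, and those of the other members were not.

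Because Sertoli markers were also higher in STZ, each member was set against them. Of the 16 Sertoli markers, 15 were called higher and 0 lower in STZ, with a median log2 difference of 1.16. Their mean log2 level exceeded the control mean by 0.81, 1.23 and 1.31 in STZ replicates 1 to 3. Markers of other cell types also moved with STZ, and each list was counted by called genes. Macrophage markers were higher in 7 of 8 (median 1.27), endothelial markers in 7 of 8 (0.60), peritubular myoid markers in 6 of 8 with 1 lower (0.65), fibroblast markers in 2 of 8 (0.30) and Leydig markers in 1 of 8 (0.13). Round spermatid markers were lower in 7 of 8 (median -0.35) and elongating spermatid markers in 8 of 8 (-0.60), while spermatocyte markers split 1 higher and 1 lower of 8 (-0.03). The summed ranges in control and STZ were 58.1 to 59.5 and 124.9 to 228.5 FPKM for macrophage markers, 69.3 to 72.7 and 161.6 to 239.4 for fibroblast markers, and 10.8 to 13.6 and 19.2 to 24.6 for endothelial markers. They were 310.1 to 332.6 and 314.9 to 379.8 FPKM for myoid markers, and 50960 to 57200 and 25090 to 46370 for elongating spermatid markers. Single genes can rule such sums. The myoid sum was mostly Actg2, with means of 241.6 FPKM in control and 188 in STZ. The fibroblast sum was mostly Dcn, with means of 42.8 and 156.1 FPKM. After median centring and after quantile normalization, the Sertoli markers were called higher in 13 and 14 of 16, the macrophage markers in 6 of 8 each and the myoid markers in 3 of 8 with 1 lower each. The endothelial markers were then higher in 3 and 1 of 8, and the spermatocyte markers were higher in 0 and lower in 6 and 1. The round spermatid markers were lower in 8 and 5 of 8 and the elongating spermatid markers in 8 and 6. The part of these cell types in the members' rise was not tested.

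Relative to the Sertoli markers, the 10 genes parted into 3 sets. The mean log2 level of the 16 markers was subtracted from every gene in each library and the model refitted. Vim (0.71 ± 0.10), Zyx (0.51 ± 0.09) and Ezr (0.37 ± 0.16) rose more in STZ than the mean of the markers (SE; adjusted p = 2.2e-06, 6.1e-05 and 0.035, limma). Flna (-0.39 ± 0.10), Cdh2 (-0.64 ± 0.13) and Gja1 (-0.63 ± 0.10) rose less than that mean (SE; adjusted p = 0.0017, 0.00023 and 1.9e-05, limma). These errors and p-values leave out the spread between markers, whose own log2 differences ran from 0.57 to 1.69. Zyx (1.62), Ezr (1.49) and Flna (0.73) lay inside that range. Vim (1.83) lay above it, and Cdh2 (0.48) and Gja1 (0.49) below it. Vcl, Actn1, Espn and Krt18 were not called, with differences of -0.18 (95% interval -0.37 to 0.01), -0.23 (-0.49 to 0.03), -0.17 (-0.36 to 0.02) and -0.24 (-0.94 to 0.46). On this scale 1.39% of all genes were called higher and 89.7% lower, so being lower was usual for a gene and being higher was not. With the median of the markers in place of the mean, the call of Ezr was lost (0.22; adjusted p = 0.16, limma), as it was when only the 2 groups compared were fitted (0.37; adjusted p = 0.056) and without control replicate 1 (0.24), control replicate 2 (0.38), STZ replicate 2 (0.30) or STZ replicate 3 (0.32). With that median, Vcl (-0.34), Actn1 (-0.38) and Espn (-0.33) were called lower. They were also called in some other alternatives: Vcl and Espn with a pseudocount of 0.1 (-0.22 and -0.24), Vcl without control replicate 1 or STZ replicate 1 (-0.23 and -0.26), and Actn1 without control replicate 1 or STZ replicate 2 (-0.30 and -0.32).

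**Figure D2:**
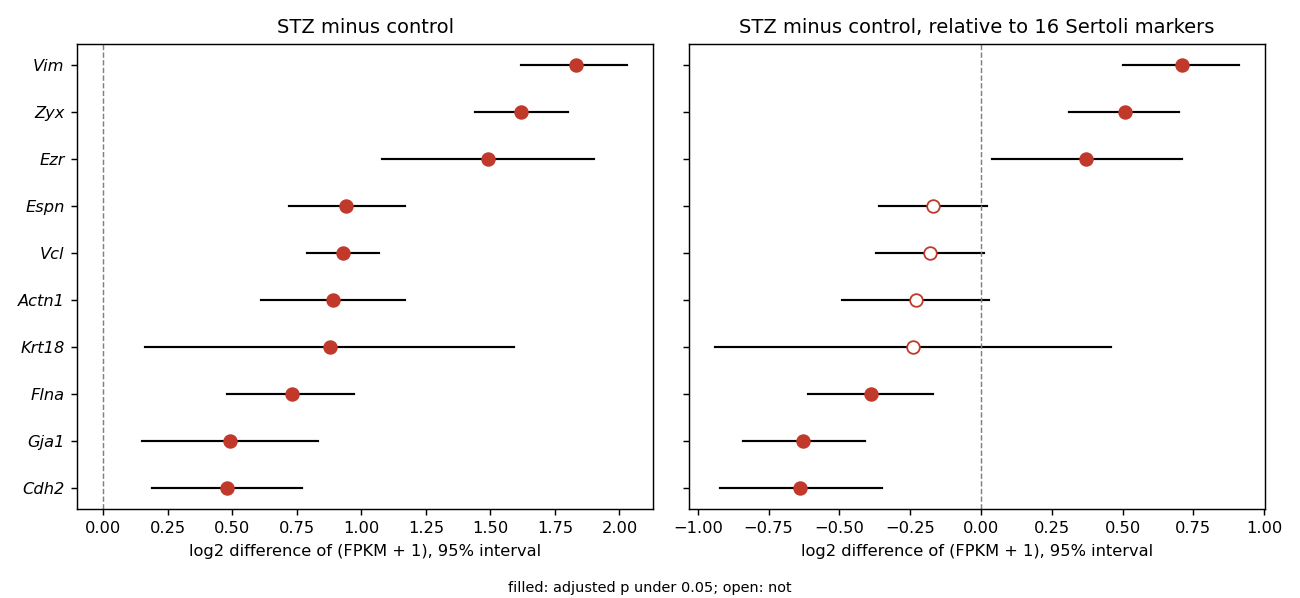
Left, log2 difference of (FPKM + 1) between STZ and control for each gene; right, the same after subtracting the mean of 16 Sertoli markers in each library; points are limma estimates, bars 95% intervals, filled points have an adjusted p under 0.05. All 10 estimates are above 0 on the left; on the right Vim, Zyx and Ezr stay above 0 and Flna, Gja1 and Cdh2 lie below it.

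The 3 treated STZ groups were each compared with STZ. These comparisons share the 3 STZ libraries with each other and with the comparison against control, so their agreement carries no separate weight. In STZ+AOS all 10 members were called lower than in STZ, against 43.1% of all genes, with a median log2 difference of -0.92. In STZ+AOS-FMT all 10 were called lower, against 44.5% of all genes; their log2 differences ran from -1.91 to -0.51. In STZ+control-FMT 7 were called lower, against 39.9% of all genes, with a median of -0.85. Marker lists moved in the same comparisons. Sertoli markers were called lower than in STZ in 15, 16 and 15 of 16 in STZ+AOS, STZ+AOS-FMT and STZ+control-FMT (medians -1.07, -1.11 and -1.10). Macrophage markers were lower in 8, 7 and 7 of 8 (medians -1.62, -1.32 and -1.23), endothelial markers in 7, 8 and 6, myoid markers in 6, 6 and 5 with 1 higher in each, fibroblast markers in 5, 5 and 2, and Leydig markers in 6, 1 and 1. Round spermatid markers were higher in 7 of 8 and elongating spermatid markers in 8 of 8 in each group. The part of these cell types in the members' fall was not tested.

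Vim stood at 39.6, 35.3 and 30.8 FPKM in STZ+AOS, at 29.0, 29.0 and 30.1 in STZ+AOS-FMT and at 29.3, 32.4 and 35.3 in STZ+control-FMT. Every one of these 9 libraries lay far below the lowest STZ library. The log2 differences from STZ were -1.66 ± 0.10, -1.91 ± 0.10 and -1.78 ± 0.10 in that order (SE; adjusted p = 2.8e-08, 4.3e-09 and 1.2e-08, limma). Zyx stood at 21.2, 19.0 and 16.5 FPKM in STZ+AOS, at 16.6, 16.5 and 16.5 in STZ+AOS-FMT and at 16.2, 16.03 and 17.97 in STZ+control-FMT. It likewise lay below STZ without overlap, with log2 differences of -1.37, -1.54 and -1.53 (SE 0.09 each; adjusted p = 4.3e-08, 8e-09 and 1.2e-08, limma). Ezr stood at 6.24, 4.32 and 5.41 FPKM in STZ+AOS, at 4.96, 5.43 and 4.07 in STZ+AOS-FMT and at 6.02, 8.02 and 7.16 in STZ+control-FMT. All 9 values were below the lowest STZ value of 12.3 FPKM, with log2 differences of -1.64, -1.76 and -1.29 (SE 0.19 each; adjusted p = 6.4e-06, 2.7e-06 and 6.5e-05, limma).

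Vcl varied little among the treated groups, at 12.6, 12.6 and 12.7 FPKM in STZ+AOS, 12.2, 11.2 and 12.6 in STZ+AOS-FMT and 12.1, 11.8 and 11.5 in STZ+control-FMT. All lay below the STZ libraries, with log2 differences of -0.88, -0.95 and -0.97 (adjusted p = 1.4e-07, 4.3e-08 and 6.5e-08, limma). Espn ranged from 26.3 to 31.6 FPKM, Actn1 from 3.42 to 5.17 and Flna from 5.43 to 8.05 over the 9 treated libraries. None of these 3 genes overlapped with STZ in any treated group. The share of all genes without overlap was not counted there, but 43.1, 44.5 and 39.9% of all genes were called lower. Their log2 differences from STZ in STZ+AOS, STZ+AOS-FMT and STZ+control-FMT were -0.74, -0.79 and -0.81 for Espn, -0.96, -1.04 and -0.89 for Actn1, and -0.72, -0.86 and -0.61 for Flna.

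Cdh2 stood at 16.4, 14.0 and 15.5 FPKM in STZ+AOS, at 16.2, 13.2 and 12.7 in STZ+AOS-FMT and at 17.3, 14.1 and 18.4 in STZ+control-FMT. Its log2 differences from STZ were -0.39 (adjusted p = 0.024, limma), -0.51 (adjusted p = 0.0052) and -0.28 (95% interval -0.58 to 0.01; adjusted p = 0.095). The call in STZ+AOS was lost without STZ replicate 2 or 3 or without STZ+AOS replicate 2, with differences of -0.37, -0.35 and -0.33. Gja1 stood at 10.1, 9.33 and 10.9 FPKM in STZ+AOS, at 10.6, 10.0 and 10.3 in STZ+AOS-FMT and at 12.6, 11.4 and 13.9 in STZ+control-FMT. It overlapped with STZ in each group because STZ replicate 1 was at 10.5 FPKM. The log2 differences were -0.60 (adjusted p = 0.0053, limma), -0.57 (adjusted p = 0.0068) and -0.30 (95% interval -0.64 to 0.04; adjusted p = 0.12), and the last was -0.57 without STZ replicate 1 (adjusted p = 6.8e-05), -0.22 without STZ replicate 2 and -0.11 without STZ replicate 3 (adjusted p = 0.57). After median centring and after quantile normalization, the called decreases of Cdh2 and Gja1 from STZ were lost, with differences between -0.05 and -0.35. Those of Gja1 were also lost when only the 2 groups compared were fitted (adjusted p = 0.07 in STZ+AOS and 0.073 in STZ+AOS-FMT, limma).

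Krt18 set the STZ+control-FMT group apart. It stood at 1.05, 1.01 and 0.40 FPKM in STZ+AOS and at 0.15, 0.51 and 0.75 in STZ+AOS-FMT, below every STZ library. In STZ+control-FMT it stood at 1.21, 4.13 and 4.39 FPKM, so that replicates 2 and 3 exceeded all STZ libraries while replicate 1 lay below them. The log2 differences from STZ were -1.04 (adjusted p = 0.017, limma), -1.34 (adjusted p = 0.0033) and 0.10 (95% interval -0.62 to 0.82; adjusted p = 0.82). Without STZ+AOS replicate 3 the first was -0.86 and no longer called (adjusted p = 0.072, limma), and it was also lost under both other scalings (-0.69 and -0.63). The libraries with high Krt18 outside STZ were the 3 with epididymal markers: control replicate 3 at 2.65 FPKM and a marker sum of 164.7, and STZ+control-FMT replicates 2 and 3 at 4.13 and 4.39 FPKM and sums of 262.9 and 282.4. Over the other 12 libraries outside STZ, Krt18 did not exceed 1.21 FPKM. In STZ replicates 2 and 3, where Krt18 was 2.80 and 2.64 FPKM, the epididymal sums were 1.38 and 1.81. In STZ replicate 1, where Krt18 was 2.59 FPKM, the sum was 13.8, the highest of the 15 libraries that remain without those 3. Without the 3 libraries, the difference between STZ+control-FMT and STZ was -0.73 (adjusted p = 0.029, limma), with STZ+control-FMT replicate 1 as the only library of its group, assumed to vary like the others. Adipose markers were highest in STZ replicate 3 (a sum of 164.8 FPKM, against 15.6 to 85.4 in the other 17 libraries), and their part was not tested.

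**Figure D3:**
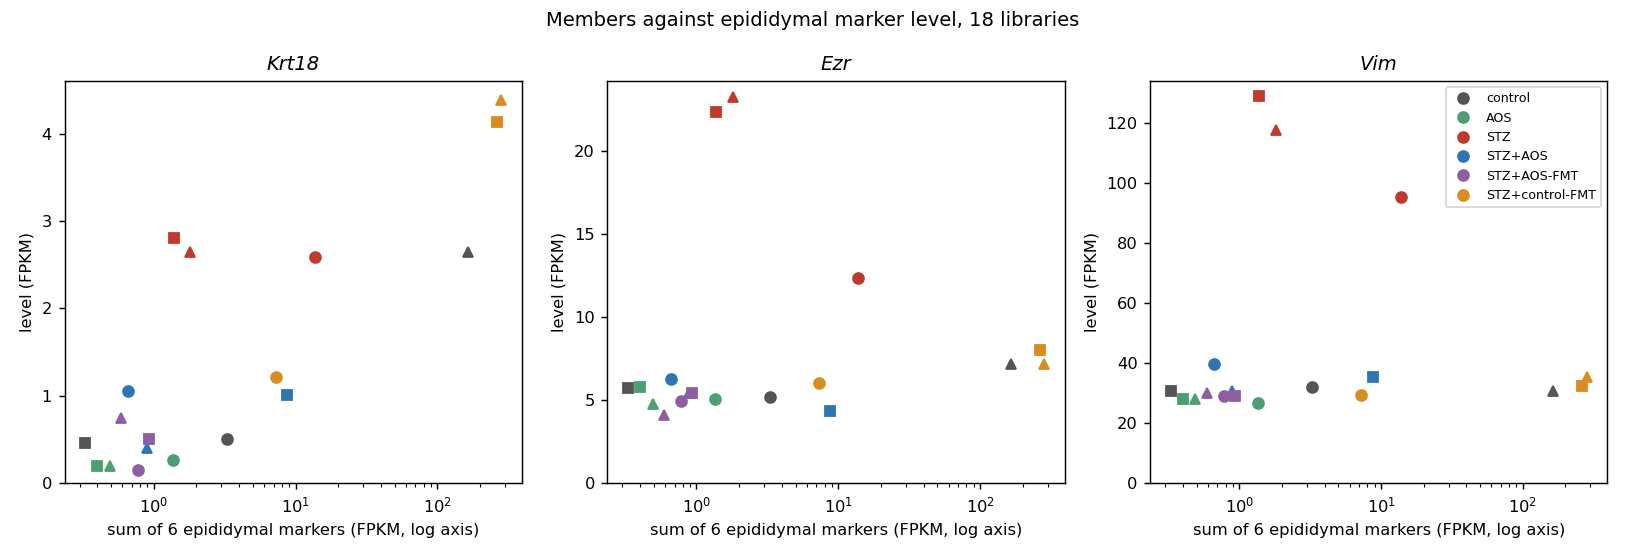
Level of Krt18, Ezr and Vim in FPKM (linear axes from 0) against the sum of 6 epididymal markers in FPKM (log axis) in 18 libraries; colours are groups, and the circle, square and triangle are replicates 1, 2 and 3. Outside the STZ group, Krt18 is at 2.65 FPKM or more in the 3 libraries with the highest sums and at most at 1.21 FPKM in the others, while Vim in those 3 libraries lies between 30.8 and 35.3 FPKM.

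Keratin 8, the usual partner of keratin 18 in one filament, did not follow it in STZ. Krt8 stood at 3.77, 3.98 and 5.84 FPKM in control and 3.92, 3.58 and 4.19 in STZ, and the groups overlapped. The log2 difference was -0.16 (95% interval -0.46 to 0.14; adjusted p = 0.35, limma), and it was called lower after median centring (-0.50) and quantile normalization (-0.57). In STZ+control-FMT, Krt8 stood at 4.34, 6.56 and 5.41 FPKM, above STZ by 0.38 on the log2 scale (adjusted p = 0.033, limma). Control replicate 3 and STZ+control-FMT replicates 2 and 3, the highest library or libraries of their groups, are the 3 with epididymal transcripts. Without them the difference between STZ+control-FMT and STZ was 0.13 and not called (adjusted p = 0.51, limma), and that between STZ and control was 0.00 (adjusted p = 0.97).

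Set against control, the treated groups gave no called member. In STZ+AOS the 10 log2 differences ran from -0.16 to 0.26, with 0.0424% of all genes called. In STZ+AOS-FMT they ran from -0.47 to 0.15, with 0% of all genes called, and in STZ+control-FMT from -0.04 to 0.97, with 0% called. These comparisons share the control libraries. At an unadjusted p under 0.05, limma counted 1130 genes in STZ+AOS, 927 in STZ+AOS-FMT and 883 in STZ+control-FMT of 14164, including 1, 0 and 1 members. Zyx lay above every control library in each treated group. Its log2 difference was 0.26 in STZ+AOS (95% interval 0.07 to 0.44; adjusted p = 0.42, limma), 0.08 in STZ+AOS-FMT and 0.09 in STZ+control-FMT. Vcl in STZ+AOS (0.05) and Gja1 in STZ+control-FMT (0.19) also lay above every control library. Vim and Flna in STZ+AOS-FMT lay below every control library (-0.08 and -0.13). The share of all genes without overlap was not counted for these comparisons. Krt18 in STZ+control-FMT differed by 0.97 (95% interval 0.26 to 1.69; adjusted p = 0.69), with overlap. Of its 3 libraries, 2 carried epididymal transcripts, as did control replicate 3. The difference was 1.41 without control replicate 3 (adjusted p = 0.4, limma) and 0.57 without all 3 such libraries, and was not called in either. The intervals for Vcl, -0.08 to 0.19 in STZ+AOS, -0.16 to 0.12 in STZ+AOS-FMT and -0.17 to 0.10 in STZ+control-FMT, were the narrowest.

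**Figure D4:**
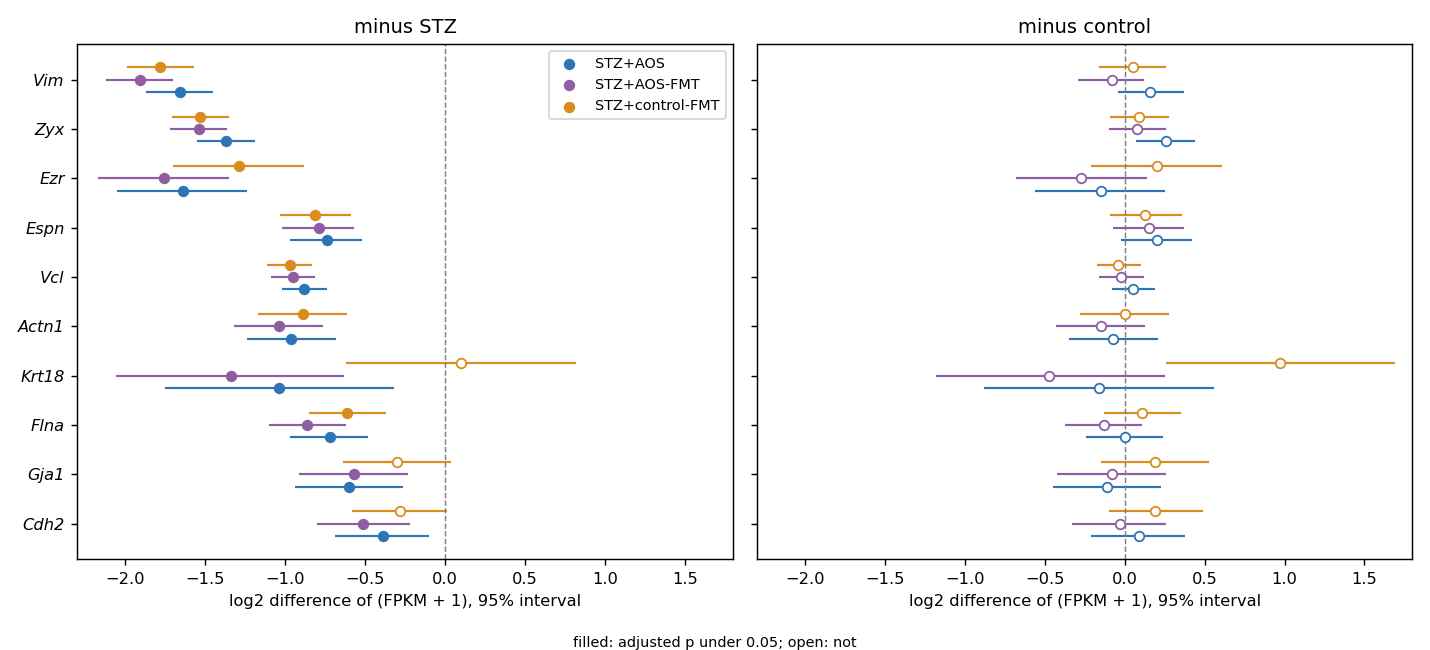
Log2 difference of (FPKM + 1) of the 3 treated STZ groups from STZ (left) and from control (right) for each gene; points are limma estimates, bars 95% intervals, and filled points have an adjusted p under 0.05. On the left all points but those of Krt18, Gja1 and Cdh2 in STZ+control-FMT are filled; on the right none is filled.

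AOS without streptozotocin gave no called member and called 0% of all genes. With limma, 1273 genes of 14164 had an unadjusted p under 0.05, among them Krt18 and Vcl. All 10 estimates were negative, from -0.72 (Krt18) to -0.05 (Cdh2). In 6 members every AOS library lay below every control library, against 14.7% of all genes. Vim was at 26.7, 28.2 and 27.99 FPKM in AOS against 30.8 to 32.0 in control, a log2 difference of -0.17 (95% interval -0.38 to 0.04; adjusted p = 0.64, limma). Vcl was at 10.8, 10.6 and 10.5 FPKM in AOS against 11.95 to 12.4 in control, also -0.17 (95% interval -0.31 to -0.04; adjusted p = 0.5). Zyx, Actn1 and Flna, the other members without overlap beside Krt18, differed by -0.11, -0.14 and -0.11. Krt18 was at 0.26, 0.20 and 0.20 FPKM in AOS, its lowest group mean. Its difference from control was -0.28 without control replicate 3, the control library with epididymal transcripts.

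The step from STZ to STZ+AOS differed from that from control to AOS in 7 members. Of all genes, 29.1% were called in the same direction. These members were also called lower than STZ in STZ+control-FMT, whose label names no AOS. Their differences there ran from -1.78 (Vim) to -0.61 (Flna), and in STZ+AOS from -1.66 (Vim) to -0.72 (Flna). Whether the fall from STZ is particular to AOS was not tested. The test is the interaction in the limma model, the change from STZ to STZ+AOS minus the change from control to AOS. It was called for Vim (-1.49), Ezr (-1.47), Zyx (-1.26), Actn1 (-0.82), Vcl (-0.70), Espn (-0.69) and Flna (-0.61). It was not called for Gja1 (-0.46; 95% interval -0.94 to 0.02), Cdh2 (-0.34; -0.75 to 0.08) or Krt18 (-0.32; -1.33 to 0.69). Flna lost its call under both other scalings (-0.30 in each). Without STZ replicate 1, Gja1 was called (-0.73; adjusted p = 0.0002, limma), while leaving out STZ replicate 2 or 3 gave -0.38 or -0.27, neither called (adjusted p = 0.25 and 0.34). Without control replicate 1 or 2 Krt18 was -0.11 or -0.09. Without the 3 libraries with epididymal markers, a choice made after seeing the data, Krt18 was -0.75 (adjusted p = 0.036, limma). Without control replicate 3 alone it was -0.75 and not called (adjusted p = 0.16, limma). A test of any difference among the 6 groups called all 10 members, against 52.3% of all genes.

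The transplants did not differ from each other in any called gene (0% of all genes). The unadjusted p was under 0.05 for 866 of 14164 genes in limma, and Krt18, Ezr and Flna were among them. The Krt18 estimate for STZ+AOS-FMT minus STZ+control-FMT was -1.44 on the log2 scale, and the groups did not overlap (adjusted p = 0.44, limma). This is the comparison in which 2 of 3 STZ+control-FMT libraries carried epididymal transcripts and no STZ+AOS-FMT library did. Ezr differed by -0.47 (95% interval -0.88 to -0.06; adjusted p = 0.8) and Flna by -0.24 (adjusted p = 0.82). Without the libraries with epididymal transcripts, which leaves STZ+control-FMT replicate 1 alone in its group, the differences were -0.61 for Krt18, -0.28 for Ezr and -0.09 for Flna, and none was called. For Zyx, Vcl and Espn the estimates were -0.01, 0.02 and 0.02, with intervals of -0.20 to 0.17, -0.12 to 0.16 and -0.21 to 0.24.

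**Figure D5:**
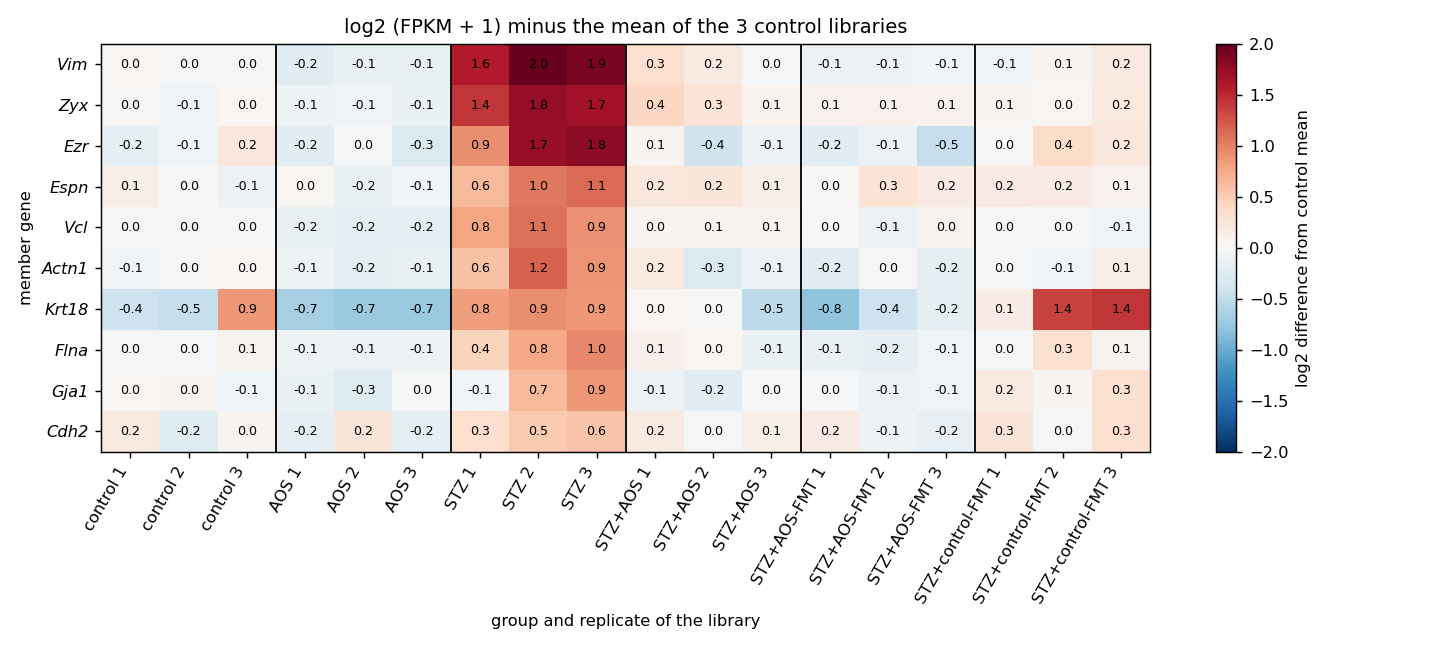
Log2 (FPKM + 1) of each gene in each of 18 libraries minus the mean of the 3 control libraries; red is higher, blue lower, and the printed values are rounded. The 3 STZ columns hold the high values, with medians over the genes of 0.72, 1.07 and 0.94, and Krt18 is also high in control replicate 3 and in STZ+control-FMT replicates 2 and 3.

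The neighbours of these genes in the same structures were counted from lists of 134 further genes, of which 116 could be tested. In STZ 80 were called higher and 7 lower, with a median log2 difference of 0.59. Beside them, 43.2% of all genes were called higher and 1705 of 14164 lower. After median centring the counts were 55 higher and 24 lower (median 0.24), beside 2678 and 6119 of all genes. After quantile normalization they were 61 and 18 (0.32), beside 3156 and 4093 of all genes. Against STZ, 81 were lower and 7 higher in STZ+AOS, 83 and 7 in STZ+AOS-FMT, and 78 and 11 in STZ+control-FMT. None was called in AOS, between the transplants, or in any treated group against control.

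Among actin cross-linking and stress fibre genes, 18 of 24 were higher and 1 lower. They included Cnn3 (calponin 3), which rose from 4.78 to 33.5 FPKM, a log2 difference of 2.54, and Lima1 (1.17) and Lasp1 (0.69). Of the actin nucleation and turnover genes, 20 of 24 were higher and 0 lower, among them Arpc5 (1.24), a subunit of the Arp2/3 complex, Cttn (1.07), encoding cortactin, and Tmsb4x (1.26), encoding the actin-sequestering thymosin beta 4. Focal adhesion genes were higher in 19 of 26 and lower in 3, with Bcar1 (0.86), Src (1.03) and Tln1 (1.01) the most significant. Of the ezrin-radixin-moesin proteins and their partners, 4 of 7 were higher and 0 lower, including Icam1 (1.41), Msn (1.26) and Pdpn (0.89). Ectoplasmic specialization genes were higher in 8 of 11 and lower in 2, including Myo7a (1.19), Fyn (0.96) and Nectin2 (0.79). Of the cadherin and catenin genes, 6 of 9 were higher and 0 lower, led by Ctnnb1 (0.74), Ctnna1 (1.13) and Ctnnd1 (0.59). Intermediate filament genes were higher in 3 of 8 and lower in 0: Lmna (0.52), Des (0.91) and Lmnb1 (0.30). The gap junction list holds pannexins beside connexins. In it 2 of 7 genes were higher (the connexin Gja4, 0.59, and the pannexin Panx1, 0.57) and 1 lower (the pannexin Panx2, -0.44). Of all genes, 43.2% were called higher. The rises of Lmna, Lmnb1, Gja4 and Panx1 were not called under the other scalings, and Lmnb1 turned to -0.04 and -0.07. After median centring and after quantile normalization, the intermediate filament genes counted 1 higher and 4 lower each (medians -0.20 and -0.16). The gap junction list then counted 0 higher, with 3 and 4 lower (medians -0.39 and -0.32). Over all 14164 genes tested, 6119 and 4093 were called lower under these scalings, and 2678 and 3156 higher.

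Close relatives of the members did not all move with them. Msn, encoding moesin, rose like Ezr, from 2.51 to 7.82 FPKM, whereas Rdx, encoding the third protein of the family, stood at 94.5 FPKM in control and 85.2 in STZ (-0.15; adjusted p = 0.069, limma). Rdx was called lower after median centring (-0.49; adjusted p = 0.00013, limma) and not after quantile normalization (-0.13). Actn4, encoding the other non-muscle alpha-actinin, rose by 0.51 (adjusted p = 0.00016, limma), a call lost after median centring (0.17). Of the 116 neighbours tested, 7 were called lower in STZ, beside 1705 of all 14164 genes. Named after their values were seen, these 7 neighbours were Panx2 (-0.44), Tln2 (-0.32), Sun3 (-0.32), Lpp (-0.29), Tes (-0.20), Nectin3 (-0.19) and Myh10 (-0.19). They include relatives of genes that rose: Lpp belongs to the zyxin family, Tln2 encodes the second talin beside Tln1, and Nectin3 is the spermatid-side partner of Nectin2 at the ectoplasmic specialization. Nectin3 was not called after quantile normalization (-0.10).

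For each member, the 3 genes whose pattern over the 18 libraries was nearest were found by the root-mean-square (RMS) difference of centred log2 values, a description that carries no test. The nearest to Vim were Lgmn, Atp1b2 and Ildr2 (RMS 0.092 to 0.107). The nearest to Zyx were Ttyh2, Clu and Myof (0.074 to 0.087), and Clu, encoding clusterin, is 1 of the 16 Sertoli markers. The nearest to Vcl were Rab31, Slc4a2 and Arhgap32 (0.052 to 0.069). Those nearest to Ezr were Cavin1, Ctsd and Anxa5 (0.154 to 0.158), to Actn1 Anxa2, Ehd4 and Lrrc8d (0.090 to 0.098), and to Flna Commd7, Vmp1 and Arl5a (0.072 to 0.080). Abtb2 and Nfe2l1 were among those nearest to Espn (0.094 each). Cdh2 was nearest to Rnf5, Coasy and Pm20d2 (0.123 to 0.130) and Gja1 to Acat1, Klhl26 and Lamp2 (0.103 to 0.107). No gene matched Krt18 closely, the nearest being Atg4a at 0.369. Among the members themselves, Vim and Zyx were nearest to each other (0.121), as were Vcl and Espn (0.127).

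All 10 genes are annotated as protein coding (GRCm38, GENCODE M21). Vim lies on chromosome 2 at 13573927 to 13582826 on the plus strand, Zyx on chromosome 6 at 42349630 to 42360213 (plus), and Ezr on chromosome 17 at 6738041 to 6782784 (minus). Vcl lies on chromosome 14 at 20929398 to 21033676 (plus), Gja1 on chromosome 10 at 56377330 to 56402513 (plus), and Krt18 on chromosome 15 at 102028180 to 102032027 (plus). Espn lies on chromosome 4 at 152120331 to 152152371 (minus), Actn1 on chromosome 12 at 80167547 to 80260371 (minus), and Flna on the X chromosome at 74223461 to 74249820 (minus). How reads shared between genes were counted, and whether strand was used, is not given in the sources used here. Of the windows of 50 bases along the longest Vcl transcript, 39.2% also occur in transcripts of Ap3m1, which overlaps the end of Vcl on the other strand. Ap3m1 itself was higher in STZ by 0.30 on the log2 scale (adjusted p = 0.008, limma), a change called neither after median centring (-0.04) nor after quantile normalization (0.07), against 0.93 for Vcl. For Actn1 the share was 10.2%, with Actn4 and 2 other genes, for Zyx 3.5%, for Krt18 0.72% and for Ezr 0.193%. The values of Vcl and Actn1 are uncertain to that extent. For Vim, Flna, Espn, Cdh2 and Gja1 it was 0%.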

How the data were processed

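Testis RNA from 18 libraries, 3 in each of 6 groups, was measured by sequencing on Illumina libraries made from total RNA, per the labels' protocols. The authors deposited 1 table with a value per gene and library and no named unit. The values were taken as FPKM because the lowest values above 0 were smaller for longer transcripts, with a median of 0.11 under 1000 bases 0.03 at 2000 to 4000 bases and 0.04 above that; RPKM would look the same. The submitters' processing notes name Bowtie 0.12.2 and mm10, with no role for either; for the counter, the annotation and the treatment of strand no source used here gives a name.

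The deposited FPKM values were compared as log2(FPKM + 1) with limma 3.58.1 in R 4.3.3 (a trended variance, 1 model with a mean for each of the 6 groups). The 14164 genes with at least 1 FPKM in at least 3 libraries were tested, all 10 members among them, and p-values were two-sided and adjusted within each comparison. The method was tested on simulated data. Samples were grouped by the treatment label, and no column was left unmapped. Replicate numbers did not pair the libraries. The alternatives were a pseudocount of 0.1, no filter, median centring, quantile normalization, a fit on only the groups compared, a replicate block, the median of the Sertoli markers, and leaving out each library. Leaving out 3 libraries with epididymal markers was chosen after seeing the data. The members and gene lists were chosen with earlier results of these data known. Named genes are the members, up to 3 called neighbours per list with the smallest p, 6 relatives of members and the nearest patterns; some genes that this rule names are not reported here. Depth is unknown, so precision rests on the 3 libraries per group.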

Additional observations from a re-analysis of the deposited data

Results flagged for a closer look

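By the limma interaction term, the step from STZ to STZ+AOS differed from that from control to AOS in 7 of the 10 genes. Of all genes, 29.1% were called in the same direction. The term is on the log2(FPKM + 1) scale and adjusted over 14164 genes. It was -1.49 for Vim (adjusted p = 1.1e-05), -1.26 for Zyx (1.3e-05), -1.47 for Ezr (0.0011), -0.70 for Vcl (9.2e-05), -0.82 for Actn1 (0.0039), -0.69 for Espn (0.0029) and -0.61 for Flna (0.009). The call of Flna was lost under both other scalings (-0.30 in each), which leaves 6. In each of these genes the STZ+AOS libraries all lay below the STZ libraries, while the change from control to AOS was between -0.18 and -0.06. The share of all genes without overlap was not counted, but 43.1% of all genes were called lower in STZ+AOS than in STZ. The STZ group is part of both the rise described above and this term, so the term is no separate evidence of that rise. The genes called by the term were also called lower than STZ in STZ+control-FMT, whose label names no AOS. Their differences there ran from -1.78 (Vim) to -0.61 (Flna). Whether the fall from STZ is particular to AOS was not tested.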

How the results depend on the processing

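Across the alternatives, none of the counts of called members left the range of 1.5 times its reported value. The count in STZ against control lay between 7 (median centring and quantile normalization) and 10. With 1 library left out it was 8 to 9. Among single member values given above, 858 under alternatives kept their sign and their side of the threshold, 42 lost a call, 12 gained one and 9 changed sign. The calls lost were those of Krt18, Cdh2, Gja1, Ezr and Flna, and the called values of Vim, Zyx, Vcl, Actn1 and Espn were kept in each alternative run.

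The values that changed sign were these. Cdh2 and Gja1 in STZ+control-FMT against STZ were 0.03 and 0.01 after median centring. Krt18 in the same comparison was -0.73 without the 3 libraries with epididymal markers and ran from -0.13 to 0.52 with 1 library left out. Its difference between STZ and control relative to the Sertoli markers was 0.20 without those 3 libraries, 0.30 with a pseudocount of 0.1, and -0.49 to 0.20 with 1 library left out. The interaction for Krt18 was 0.04 after quantile normalization. The causes were not tested. In the comparisons with no called member, 43 further member values gave 0 calls in 559 alternative values, 36 of which changed sign, none larger than 0.27 in size.

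Replicate numbers are shared across groups, but libraries with the same number did not deviate together (r between -0.21 and 0.20). With a replicate block, 10 members were called in STZ against control and 7 in STZ+control-FMT against STZ, as without it, and 7742 genes in all against 7823. Fitting only the groups compared called 5132 genes in STZ against control, 4944 against 7786 in STZ+AOS, 5225 against 8011 in STZ+AOS-FMT and 4184 against 7257 in STZ+control-FMT (each against STZ). It called 76 against 6 in STZ+AOS against control, where median centring called 12. Without the 3 libraries with epididymal markers, 2 genes were called in STZ+AOS-FMT against control, neither of them a member. STZ+control-FMT then holds replicate 1 alone, in which Ezr differed from STZ by -1.48 and Krt18 by -0.73. With 3 libraries a group and no read depth, small differences in low genes such as Krt18 cannot be resolved.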
